A study of Homo sapiens with 4 samples.

Results

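The mRNAs described here are those of the RNF and TRIM ubiquitin ligases, taken as every gene name in the deposited files made of RNF or TRIM, a number and at most 1 further letter. The rule found 110 of 13300 gene names, 67 RNF and 43 TRIM, with 274 of the 34975 listed transcripts. Of these transcripts, 228 had the type protein_coding and 46 the type processed_transcript. RNA immunoprecipitation sequencing (RIP-seq), which sequences the RNA that an antibody brings down from a cell lysate, was performed in HCCLM3, an established human hepatocellular carcinoma cell line. There were 2 replicates with an antibody against KIAA1429 (KIAA1429 RIP) and 2 with normal IgG (IgG RIP), which gives the background of the method, and no other treatment was named for either group. The comparison asked which mRNAs were recovered with KIAA1429, also called VIRMA, the largest known subunit of the complex that writes N6-methyladenosine (m6A) on RNA. Input RNA was not analysed here, so the level of an mRNA in the cells and its recovery cannot be told apart within a library. Nothing states that the replicates came from separate cultures, so p-values measure only the spread between these libraries, which may be technical.

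Ubiquitin is passed from an activating enzyme (E1) to a conjugating enzyme (E2), and a ligase (E3) then brings the loaded E2 to the protein that is to be marked. Most RNF proteins carry a RING finger, the zinc-binding fold that docks the E2. Most TRIM proteins combine a RING with B-boxes and a coiled coil, and their C-terminal domain, often PRY-SPRY, selects the target. The family serves chromatin, DNA repair, protein quality control and antiviral signalling, and another RING protein, CBLL1 (HAKAI), belongs to the same m6A writer complex as KIAA1429.

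The labelled cell type was checked against marker genes. All 8 hepatocyte and hepatoma markers on the list averaged 1 FPKM or more (fragments per kilobase of transcript, scaled to library size), with a median of 30.6 FPKM. AFP, the fetal albumin relative made by many hepatomas, was at 121 and 128 FPKM with IgG and at 99.1 and 115 FPKM with the KIAA1429 antibody. All 3 epithelial markers also reached 1 FPKM, whereas 0 of the 3 leukocyte, 0 of the 2 endothelial, 0 of the 2 fibroblast and 0 of the 1 erythroid markers did.

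The depth of the libraries could be estimated from the lowest values. A single fragment on a transcript adds a fixed step to the product of FPKM and length, and 910 transcripts longer than 1000 bases that were alone in both the files and the annotation for their gene were read for such a step. Of the 80 lowest values in each library, 47 and 58 with IgG, and 57 and 46 with the KIAA1429 antibody, lay within 0.05 of a whole multiple. However, 7 and 8 values with IgG, and 9 and 12 with the KIAA1429 antibody, lay below 1 step. On a transcript of 1000 bases, 1 fragment was thus worth 0.501 and 0.666 FPKM with IgG and 0.563 and 0.512 FPKM with the KIAA1429 antibody. These steps correspond to about 1995000 and 1502000 fragments with IgG and 1776000 and 1954000 fragments with the KIAA1429 antibody, which is shallow. IgG RIP replicate 2 was the shallowest library. Fragment numbers are estimates from these steps and from annotated transcript lengths.

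Of the 110 gene totals, which are the FPKM values of a gene's listed transcripts added up, 96 (60 RNF, 36 TRIM) averaged 1 FPKM or more across all 4 libraries and were tested, as were 11361 among all genes. The lowest totals inside this limit were TRIM62 at a mean of 1.57 FPKM and RNF208 at 1.63, and the highest outside it were TRIM46 at 0.991 and RNF150 at 0.900. The 14 totals below the limit included RNF32, listed at 1.14 FPKM in IgG RIP replicate 2 and at 0 elsewhere, and TRIM52, listed at 2.67 FPKM in KIAA1429 RIP replicate 2 and at 0 elsewhere, both named after their values were seen. RNF43, which removes Wnt receptors from the cell surface, was not analysed here. The 96 totals ran from 1.57 to 57.1 FPKM with a median of 8.18, close to the 8.69 FPKM of all gene totals. In estimated fragments the median was 43.7 per library, and 77 of the 96 had at least 10 in every library.

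As a share of all FPKM, the 110 mRNAs together made up 0.410% and 0.338% with IgG, and 0.318% and 0.335% with the KIAA1429 antibody. IgG RIP replicate 1 was the highest, and both KIAA1429 RIP shares lay below both IgG RIP shares. The family's FPKM sums overlapped, at 1212 and 1067 with IgG and at 1073 and 1139 with the KIAA1429 antibody. All FPKM summed to 295573 and 315446 with IgG and to 337041 and 340300 with the KIAA1429 antibody. A single gene, AL139099.5, averaged 9794 FPKM with IgG and 18870 FPKM with the KIAA1429 antibody, and its effect on the shares was not tested. By group mean, 43 of the 96 totals were higher in KIAA1429 RIP and 53 lower. Their median log2 ratio of group means was −0.08, against 0.01 over all gene totals, and it was 0.0353 against 0.14 without IgG RIP replicate 1 and 0.00898 against 0.0214 with fragments in place of FPKM.

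The largest rise was in RNF181, a small RING ligase first described as a partner of a platelet integrin. It was at 5.96 and 3.40 FPKM in the IgG libraries and 56.8 and 51.0 FPKM in the KIAA1429 libraries. Both KIAA1429 RIP libraries were high and both IgG RIP libraries low, and the lowest KIAA1429 RIP value was 8.54 times the highest IgG RIP value. The group means were 4.68 ± 1.81 and 53.9 ± 4.15 FPKM (SD, n = 2 each), a ratio of 11.5. In estimated fragments the gene had 8 and 3 with IgG, against 68 and 68 with the KIAA1429 antibody. It held 0.492% and 0.318% of the family's FPKM with IgG, against 5.30% and 4.47% with the KIAA1429 antibody. Without it, the family summed to 1206 and 1064 FPKM with IgG, against 1016 and 1088 FPKM with the KIAA1429 antibody, or 0.408% and 0.337% of all FPKM against 0.301% and 0.320%. The log2 fold change from limma on log2(FPKM + 1), a scale that understates changes of low genes, was 3.31 with a standard error of 0.37 and an unadjusted p of 4.54e-05. This was the lowest p of the 11361 gene totals, but after Benjamini-Hochberg adjustment over all of them limma gave an adjusted p of 0.515, so RNF181 did not pass the test. An exact permutation test of 2 libraries against 2 cannot give a two-sided p below 0.333. In the same direction, 55 other gene totals of the 11361 also had groups at least 8.54 times apart, and 47 of the 55 were listed at 0 in both IgG RIP libraries.

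RNF181 lies at chr2:85822857-85824736 on the plus strand of GRCh37, and 2 of its 6 annotated transcripts were listed. Nearly all of its signal was assigned to ENST00000306368, a coding transcript of 685 bases in 5 exons, at 5.96 and 2.36 FPKM after IgG and at 52.8 and 51.0 FPKM after KIAA1429 precipitation. The shorter ENST00000456023 was listed at 0 and 1.04 FPKM with IgG and at 3.99 and 0 FPKM with the KIAA1429 antibody, which overlap. Since KIAA1429 belongs to the m6A writer, whose target consensus has GGAC as its most frequent core, the GGAC matches on the sense strand of this transcript are shown because the result turns on it. All 4 matches lie in the coding sequence, in exon 1 at chr2:85822917-85822937 and in exon 2 at chr2:85823652-85823672, chr2:85823685-85823705 and chr2:85823738-85823758. The lines run from 5′ to 3′ in GRCh37, with the motif in capitals.
RNF181 exon 1: gagccgtcGGACcctgagcag
RNF181 exon 2, first match: aataggatGGACtttgaagac
RNF181 exon 2, second match: gtagattgGGACcaccacctg
RNF181 exon 2, last match: cctccccaGGACagtcatcag
The transcript had 5.84 matches per kilobase. A match is a string of letters and not a methylated site, and 98.5% of the most abundant listed transcripts of all gene totals held at least 1 GGAC.

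**Figure D1:**
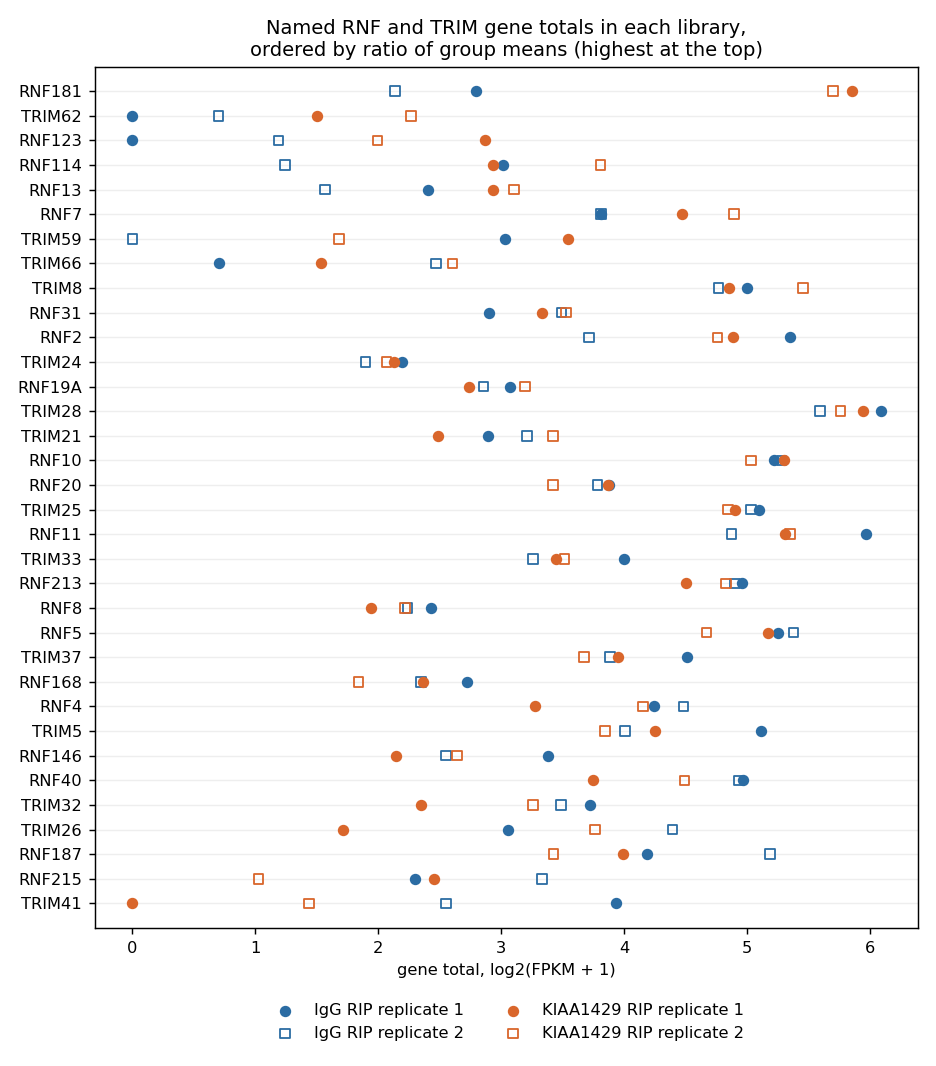
Gene totals of 34 named RNF and TRIM genes in each of the 4 libraries, as log2(FPKM + 1), ordered from the highest ratio of KIAA1429 RIP to IgG RIP at the top; filled circles are replicate 1 and open squares replicate 2. RNF181 shows the widest gap between groups, and for most other genes the colours intermix.

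With limma, calling a member when its adjusted p was under 0.05 and its log2 fold change larger than 1 in size, 0 of 96 ligase totals were enriched in KIAA1429 RIP, against 0% of all gene totals, and 0 were depleted, also against 0%. At an unadjusted p under 0.05 from limma, 3 members were higher, which is 3.12% and about the 3.17% of all gene totals, and 1 was lower, 1.04% against 1.43%. The 3 were RNF181, RNF123 and RNF7, and the 1 was TRIM41. By group means alone, 7 totals were at least 2-fold higher in KIAA1429 RIP, 7.29% against 7.58% of all gene totals, and 4 were at least 2-fold lower, 4.17% against 6.14%. The first count was 17 without IgG RIP replicate 1 (17.7% against 15.8% of all gene totals) and 4 with fragments in place of FPKM (4.44% against 6.85%). The second was 7 without KIAA1429 RIP replicate 1 (7.29% against 11.7%) and 8 without KIAA1429 RIP replicate 2 (8.42% against 10.6%). With only the most abundant listed transcript of each gene, the second was 8 (8.33% against 9.91%). All KIAA1429 RIP values lay above all IgG RIP values in 19 members (19.8% against 16.6% of all gene totals) and below them in 20 (20.8% against 15.2%). The groups overlapped in the remaining 57. Fewer values overlap less by construction, and the 19 became 37 without IgG RIP replicate 1 (38.5% against 40.1% of all gene totals) and 31 without KIAA1429 RIP replicate 1 (32.3% against 30.5%). Likewise, the 20 became 49 without IgG RIP replicate 2 (51.0% against 37.9%), 34 without KIAA1429 RIP replicate 1 (35.4% against 31.1%) and 37 without KIAA1429 RIP replicate 2 (38.9% against 29.5%). Of the 11 members at least 2-fold apart, 8 had fewer than 10 estimated fragments in at least 1 library.

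**Figure D2:**
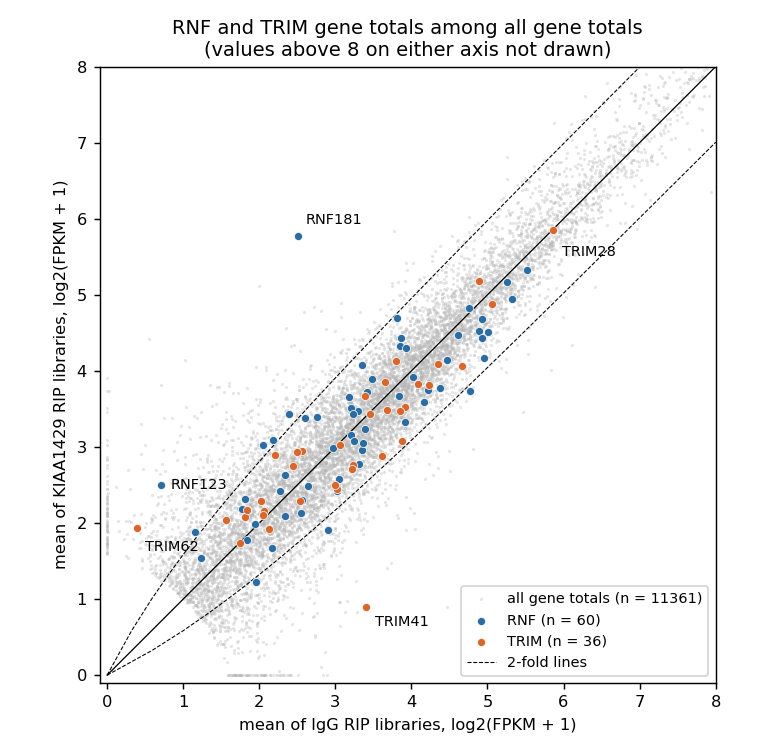
Mean of the IgG RIP libraries against mean of the KIAA1429 RIP libraries, both as log2(FPKM + 1), for 11361 gene totals in grey with 60 RNF in blue and 36 TRIM in orange; dashed lines mark 2-fold differences. RNF181 lies far above the upper line and TRIM41 far below the lower one, while most of the 96 lie between the lines.

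After RNF181, the members with the largest positive log2 fold changes had at least 1 low value in IgG RIP. RNF123, the catalytic subunit of the KPC complex that marks the cell cycle inhibitor p27, was listed at 0 and 1.28 FPKM in the IgG libraries and 6.31 and 2.98 FPKM in the KIAA1429 libraries. The groups did not overlap, and the values stand for about 0, 8, 48 and 25 fragments. Limma gave a log2 fold change of 1.84, a standard error of 0.67 and an adjusted p of 0.997, and with single libraries left out the log2 fold change ran from 1.24 to 2.43. The gene shares its locus with GMPPB and AMIGO3 on the opposite strand, and whether the counting used strand is not given in the sources used here. TRIM62, a PRY-SPRY ligase linked to epithelial polarity, was listed at 0 and 0.626 FPKM after IgG and at 1.83 and 3.81 FPKM after KIAA1429 precipitation. These values stand for about 0, 4, 12 and 14 fragments, and 2.08 FPKM of the last came from ENST00000486583, a processed_transcript of 306 bases listed at 0 elsewhere. By mean FPKM TRIM62 was the least abundant of all members tested. The IgG RIP means of RNF123 and TRIM62 were 0.639 and 0.313 FPKM, so both reached the limit of 1 FPKM through the KIAA1429 libraries. RNF114, a ligase known from psoriasis genetics, was at 7.09 and 1.37 FPKM with IgG and at 6.66 and 13.02 FPKM with the KIAA1429 antibody, where the first IgG RIP value exceeded the lower KIAA1429 RIP value, and its limma log2 fold change ran from 0.36 to 2.13 with single libraries left out. TRIM59, a TRIM protein with a transmembrane segment, was listed at 7.19 and 0 FPKM in the IgG libraries and 10.7 and 2.20 FPKM in the KIAA1429 libraries, so that replicates differed more than groups.

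At the other end was TRIM41, a PRY-SPRY ligase known to mark protein kinase C, at chr5:180650290-180662809 on the plus strand. It was listed at 14.3 and 4.87 FPKM after IgG and at 0 and 1.71 FPKM after KIAA1429 precipitation. Both KIAA1429 RIP values were below both IgG RIP values, but the IgG RIP replicates themselves were 2.93-fold apart. The values stand for about 95, 27, 0 and 9 fragments, and limma gave a log2 fold change of −2.52, a standard error of 0.73 and an adjusted p of 0.993, with a range of −3.24 to −1.80 for the log2 fold change when single libraries were left out. Its transcript of 3645 bases, ENST00000315073, was listed at 9.86 and 4.87 FPKM with IgG and at 0 and 0 FPKM with the KIAA1429 antibody. That transcript holds 23 GGAC matches, 16 of them coding, at 6.31 per kilobase, a density above that of RNF181. RNF187 (RACO-1), a coactivator of c-Jun, was at 17.2 and 35.4 FPKM in the IgG libraries and 14.9 and 9.76 FPKM in the KIAA1429 libraries, without overlap. RNF215, a RING protein, was at 3.93 and 9.08 FPKM after IgG and at 4.47 and 1.04 FPKM after KIAA1429 precipitation, with overlap and a limma log2 fold change of −1.79 to −0.37 when single libraries were left out. TRIM26, a PRY-SPRY protein of antiviral signalling, was at 7.32 and 20.04 FPKM with IgG and at 2.27 and 12.6 FPKM with the KIAA1429 antibody. In TRIM26 the second replicate was the higher in both groups, and the groups overlapped.

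The replicates differed widely for many members. In IgG RIP, 25 of the 96 members (26.0%) were at least 2-fold apart between replicates, against 29.8% of all gene totals, and in KIAA1429 RIP 18 members (18.8%) were, against 24.8%. Spearman's rho across the 96 members reached 0.834 for the IgG pair and 0.811 for the KIAA1429 pair, and ran from 0.735 to 0.795 for pairs of libraries from different groups. Across all 11361 gene totals it was 0.849 and 0.872 within groups and ran from 0.833 to 0.885 between groups, so the closest pair there joined the groups. These correlations run across genes, which are not independent replicates.

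**Figure D3:**
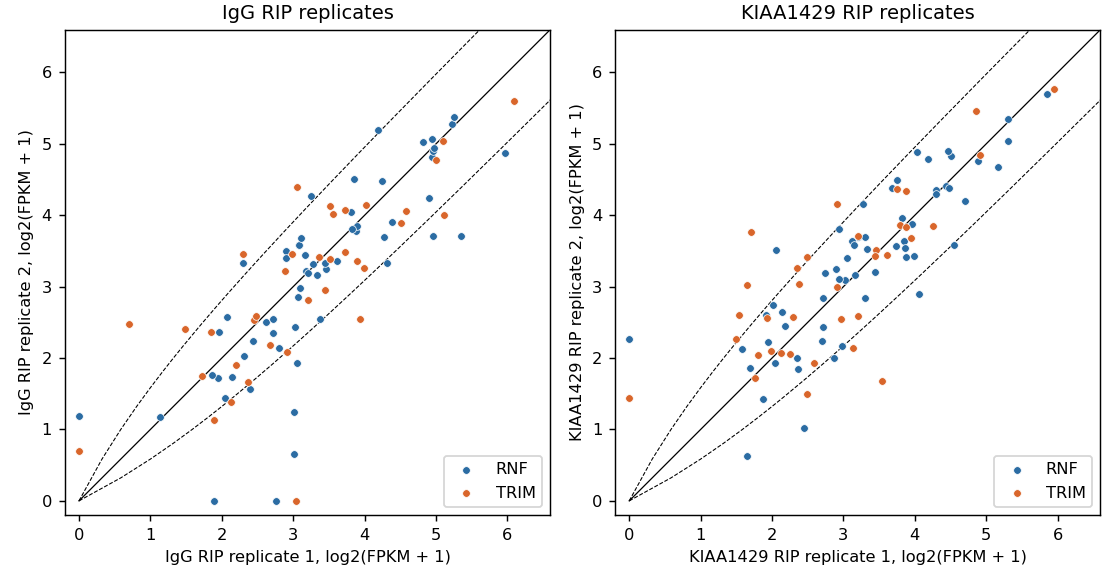
Replicate 1 against replicate 2 of IgG RIP (left) and KIAA1429 RIP (right), as log2(FPKM + 1), for the 60 RNF and 36 TRIM totals tested; the solid line marks equality and the dashed lines 2-fold differences. Outside the dashed lines lie 25 members in IgG RIP and 18 in KIAA1429 RIP, mostly at low values.

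Turning to the members by role, 1 of the 3 histone ubiquitin ligases was higher and 2 were lower by group mean (all gene totals: 49.4% lower). Without overlap, 0 lay above and 1 below (all gene totals: 16.6% and 15.2%). RNF2 (RING1B), which marks histone H2A in Polycomb complexes, was at 39.7 and 12.1 FPKM in the IgG libraries and 28.7 and 26.1 FPKM in the KIAA1429 libraries, and both KIAA1429 RIP values fell between the IgG RIP values. RNF20, which marks histone H2B, was at 13.7 and 12.8 FPKM after IgG and at 13.6 and 9.71 FPKM after KIAA1429 precipitation, with overlap. RNF40, its partner, was at 30.3 and 29.6 FPKM with IgG and at 12.4 and 21.5 FPKM with the KIAA1429 antibody, without overlap. The RNF40 difference lay in short transcripts. ENST00000324685, of 5309 bases, was at 13.05 and 10.4 FPKM in the IgG libraries and 12.4 and 13.1 FPKM in the KIAA1429 libraries. ENST00000566811, of 569 bases, was listed at 14.5 and 19.2 FPKM after IgG and at 0 and 8.37 FPKM after KIAA1429 precipitation. When FPKM was turned back into fragments scaled to library size (FPM, a fragments-per-million scale), where a short transcript counts for little, RNF40 was at 79.2 and 66.3 FPM with IgG and at 66.1 and 74.4 FPM with the KIAA1429 antibody, and the groups overlapped.

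Of 6 ligases of DNA damage and SUMO-targeted marking, 1 was higher and 5 were lower by group mean (83.3% lower, against 49.4% of all gene totals), with 1 above and 2 below without overlap (all gene totals: 16.6% and 15.2%) and a median log2 ratio of −0.38. RNF8, which starts the ubiquitin signal at double-strand breaks, was at 4.39 and 3.72 FPKM in the IgG libraries and 2.85 and 3.66 FPKM in the KIAA1429 libraries. RNF168, which extends that signal on H2A, was at 5.5999 and 4.10 FPKM after IgG and at 4.16 and 2.58 FPKM after KIAA1429 precipitation. RNF4, which marks proteins that carry SUMO chains, was at 17.97 and 21.4 FPKM with IgG and at 8.69 and 16.8 FPKM with the KIAA1429 antibody. All 3 had lower group means in KIAA1429 RIP, the groups overlapped only for RNF168, and the limma log2 fold changes were −0.25, −0.43 and −0.65 with standard errors of 0.48, 0.49 and 0.40. On the FPM scale RNF4 was at 49.7 and 43.7 FPM in the IgG libraries and 24.8 and 49.1 FPM in the KIAA1429 libraries, with overlap, and the 6 ligases had a median log2 ratio of −0.21, with 2 higher and 4 lower. The member higher in FPKM was RNF138, a ligase of DNA end resection named after its values were seen, at 3.98 and 3.07 FPKM after IgG and at 8.85 and 6.198 FPKM after KIAA1429 precipitation.

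Among the transmembrane ligases with a protease-associated domain, 4 of 9 were tested and split evenly, 2 above and 2 below without overlap (all gene totals: 16.6% and 15.2%). In FPM 2 lay above and 1 below (all gene totals in FPM: 16.5% and 14.1%), since RNF167, named after its values were seen, overlapped there. RNF13, a ligase of endosomes and lysosomes, was at 4.29 and 1.97 FPKM with IgG and at 6.63 and 7.596 FPKM with the KIAA1429 antibody, with a limma log2 fold change of 1.03 and a standard error of 0.50. Its most abundant transcript, ENST00000392894, holds 3 GGAC matches and none in the coding sequence, at 1.28 per kilobase. That transcript was at 3.68 and 1.97 FPKM with IgG and at 2.51 and 4.91 FPKM with the KIAA1429 antibody, with overlap. ENST00000361785 was at 4.12 FPKM in KIAA1429 RIP replicate 1 and ENST00000490631, of 583 bases, at 2.69 FPKM in replicate 2, each listed at 0 in the other. In FPM the RNF13 groups did not overlap, with a log2 ratio of 0.90. Of 7 ligases of the endoplasmic reticulum membrane, 3 were higher and 4 lower, with a median log2 ratio of −0.38, and in FPM, where 6 could be compared, the median was −0.20. RNF5, which takes part in the degradation of misfolded membrane proteins, was at 37.1 and 40.6 FPKM in the IgG libraries and 34.99 and 24.5 FPKM in the KIAA1429 libraries. The RNF5 groups did not overlap, and the limma log2 fold change was −0.39 with a standard error of 0.31.

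Of the 8 RING-between-RING ligases, which carry ubiquitin on a catalytic cysteine before passing it on, 6 were higher and 2 lower, with 3 above and 0 below without overlap (all gene totals: 16.6% and 15.2%) and a median log2 ratio of 0.14. In FPM 3 lay above and 1 below (all gene totals in FPM: 16.5% and 14.1%). The latter was RNF144B, named after its values were seen, at 26.0 and 23.4 FPM after IgG and at 14.0 and 12.1 FPM after KIAA1429 precipitation. RNF31 (HOIP), which makes linear ubiquitin chains, was at 6.49 and 10.3 FPKM with IgG and at 9.06 and 10.5 FPKM with the KIAA1429 antibody, with overlap. RNF31 is overlapped by PSME2 on the opposite strand. RNF7 (RBX2), the RING subunit that pairs with cullins, was at 13.1 and 13.1 FPKM in the IgG libraries and 21.1 and 28.8 FPKM in the KIAA1429 libraries. These groups were apart, with a limma log2 fold change of 0.87, a standard error of 0.33 and an adjusted p of 0.997. As in RNF40, the gap depended on short transcripts. The RNF7 transcript of 2669 bases, ENST00000273480, was at 13.1 and 6.67 FPKM after IgG and at 4.94 and 9.51 FPKM after KIAA1429 precipitation. The transcript of 782 bases, ENST00000480908, was at 16.2 FPKM in KIAA1429 RIP replicate 1 and listed at 0 in the other libraries. The transcript of 805 bases, ENST00000393000, was listed at 0 and 6.40 FPKM with IgG and at 0 and 19.3 FPKM with the KIAA1429 antibody. On the FPM scale RNF7 was at 34.9 and 22.9 FPM in the IgG libraries and 25.9 and 40.9 FPM in the KIAA1429 libraries, with overlap.

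RNF213, a very large ATPase and ligase known from moyamoya disease, was at 30.2 and 29.0 FPKM after IgG and at 21.8 and 27.4 FPKM after KIAA1429 precipitation, without overlap. With 512 to 870 estimated fragments per library it was the most deeply read member, and on the FPM scale, at 417 and 435 FPM with IgG and at 288 and 445 FPM with the KIAA1429 antibody, the groups overlapped. RNF11, an adaptor of HECT ligases, was at 61.8 and 28.4 FPKM in the IgG libraries and 38.7 and 39.8 FPKM in the KIAA1429 libraries, so that the KIAA1429 RIP replicates agreed closely and the IgG RIP replicates did not. RNF10, which marks ribosomal proteins, was at 36.2 and 37.9 FPKM after IgG and at 38.4 and 31.8 FPKM after KIAA1429 precipitation, which overlap.

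The TRIM proteins with a PHD finger and a bromodomain, which read chromatin, showed 2 members higher and 2 lower and 0 of 4 without overlap (all gene totals: 16.6% above and 15.2% below). TRIM28 (KAP1), the corepressor of KRAB zinc finger proteins, was the most abundant member, at 67.2 and 47.4 FPKM with IgG and at 60.7 and 53.3 FPKM with the KIAA1429 antibody. Its KIAA1429 RIP values lay between its IgG RIP values, and the limma log2 fold change was 0.0112 with a standard error of 0.31. TRIM24, a nuclear receptor cofactor, was at 3.57 and 2.73 FPKM in the IgG libraries and 3.37 and 3.20 FPKM in the KIAA1429 libraries. TRIM33, which acts on SMAD4, was at 14.99 and 8.57 FPKM after IgG and at 9.93 and 10.5 FPKM after KIAA1429 precipitation. In both, the KIAA1429 RIP values again fell inside the range of the IgG RIP values.

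Of the 32 PRY-SPRY TRIM genes on the list, 20 were listed in the files and 19 tested, of which 8 were higher and 11 lower by group mean (10 and 9 in FPM). The list did not hold TRIM14, TRIM16 and TRIM16L, named after their values were seen. Their log2 ratios of group means were −0.27, −0.54 and −0.59. TRIM21, an intracellular antibody receptor, was at 6.42 and 8.27 FPKM with IgG and at 4.62 and 9.72 FPKM with the KIAA1429 antibody, and both KIAA1429 RIP values lay outside the IgG RIP range on opposite sides. TRIM25, which activates the RNA sensor RIG-I, was at 33.2 and 31.8 FPKM in the IgG libraries and 29.0 and 27.8 FPKM in the KIAA1429 libraries. The TRIM25 groups did not overlap, but the limma log2 fold change was −0.19 with a standard error of 0.29. TRIM5, which recognises retroviral capsids, was at 33.7 and 15.1 FPKM after IgG and at 18.1 and 13.4 FPKM after KIAA1429 precipitation, and it is overlapped by TRIM22 on the opposite strand. Of the 4 NHL-domain genes, 3 were tested, of which 2 were higher and 1 lower, with a median log2 ratio of 0.36, but in FPM the 2 that could be compared were both lower. TRIM32, mutated in a limb-girdle muscular dystrophy, was at 12.2 and 10.2 FPKM with IgG and at 4.10 and 8.59 FPKM with the KIAA1429 antibody, without overlap, and lies within ASTN2 on the opposite strand. On the FPM scale TRIM32 was at 45.4 and 23.2 FPM in the IgG libraries and 15.1 and 31.9 FPM in the KIAA1429 libraries, with overlap. TRIM37, a centrosome regulator, was at 21.8 and 13.8 FPKM after IgG and at 14.4 and 11.8 FPKM after KIAA1429 precipitation. TRIM8, a ligase of inflammatory signalling, was at 30.9 and 26.3 FPKM with IgG and at 27.95 and 42.8 FPKM with the KIAA1429 antibody. The TRIM37 and TRIM8 groups both overlapped. None of the 3 listed genes with COS and FN3 domains averaged 1 FPKM, and the 3 muscle TRIM genes TRIM54, TRIM55 and TRIM63 were not analysed here.

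Of the 60 RNF totals 27 were higher and 33 lower, with a median log2 ratio of −0.09, and of the 36 TRIM totals 16 were higher and 20 lower, with a median of −0.03. Without overlap, 16 RNF totals lay above (26.7%) and 13 below (21.7%), and 3 TRIM totals lay above (8.33%) and 7 below (19.4%), against 16.6% and 15.2% of all gene totals. In FPM these counts were 14 and 8 of 57 RNF totals (24.6% and 14.0%) and 3 and 5 of 33 TRIM totals (9.09% and 15.2%). Over all gene totals in FPM, 16.5% lay above and 14.1% below. The difference between the RNF and TRIM totals was not tested.

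**Figure D4:**
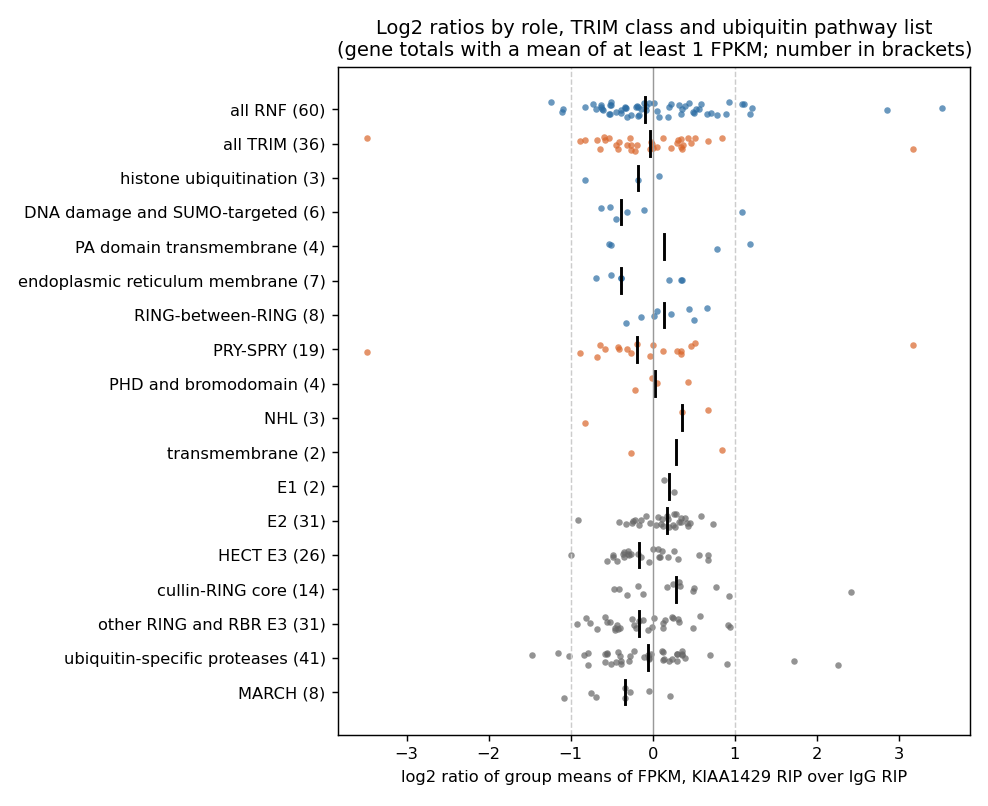
Log2 ratios of group means, KIAA1429 RIP over IgG RIP, for RNF role lists in blue, TRIM classes in orange and ubiquitin pathway lists in grey; each point is a gene total with a mean of at least 1 FPKM, black bars are medians and dashed lines mark 2-fold. USP3, listed at 0 in both KIAA1429 RIP libraries, has no finite ratio and is not drawn, and all medians lie within 2-fold.

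The 3 members with the largest shifts between listed transcripts over a total within 2-fold were chosen by that shift. RNF146, which marks poly(ADP-ribosyl)ated proteins, was in total at 9.42 and 4.87 FPKM in the IgG libraries and 3.43 and 5.24 FPKM in the KIAA1429 libraries. Its ENST00000476956 was listed at 3.36 and 2.83 FPKM after IgG and at 0 and 0 FPKM after KIAA1429 precipitation. Its ENST00000309649 was listed at 0 and 0.666 FPKM with IgG and at 0.0340 and 5.24 FPKM with the KIAA1429 antibody, so that 1 library carried that transcript. RNF19A, a RING-between-RING ligase, was in total at 7.40 and 6.24 FPKM in the IgG libraries and 5.69 and 8.16 FPKM in the KIAA1429 libraries. In RNF19A, ENST00000341084 was at 6.76 and 1.93 FPKM after IgG and at 1.04 and 0.533 FPKM after KIAA1429 precipitation, and ENST00000519449 listed at 0 and 1.81 FPKM with IgG and at 4.02 and 5.27 FPKM with the KIAA1429 antibody. Both RNF19A transcripts separated the groups, in opposite directions. TRIM66, a chromatin-reading relative of TRIM24, was in total at 0.628 and 4.54 FPKM in the IgG libraries and 1.89 and 5.08 FPKM in the KIAA1429 libraries. Its ENST00000530502 was at 4.32 FPKM in KIAA1429 RIP replicate 2 and listed at 0 elsewhere. Its ENST00000531498 was at 2.78 FPKM in IgG RIP replicate 2 and listed at 0 elsewhere, so that 1 library carried each. The tool that divided fragments between transcripts is not given in the sources used here.

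Because of this division, the family was also compared in FPM, a scale added after the data had been seen. All transcripts had an annotated length in 90 of the 96 members. Of these, 17 lay above and 13 below without overlap, against 16.5% and 14.1% of 10549 gene totals. Of the 19 above on the FPKM scale, 14 stayed above. Of the 20 below, 19 could be compared and 10 of those stayed below. With 1 listed transcript, as in 28 of the 96 members, FPM is FPKM times a constant. The overlap of such a member could not change, so part of these counts was fixed in advance. RNF181 was at 4.09 and 2.20 FPM after IgG and at 38.4 and 34.9 FPM after KIAA1429 precipitation, with a log2 ratio of 3.55, but by p it ranked 9 among the gene totals there, with an adjusted p of 0.602 from limma. TRIM41 had a log2 ratio of −3.83 and TRIM62 of 2.58, each on the same side as in FPKM. RNF123, with 1 listed transcript, had 2.86 on both scales by construction. TRIM27, a PRY-SPRY ligase of endosomal sorting named after its values were seen, changed sides. It was at 12.2 and 15.9 FPKM with IgG and at 11.2 and 9.88 FPKM with the KIAA1429 antibody, but at 23.1 and 24.0 FPM in the IgG libraries and 31.1 and 28.7 FPM in the KIAA1429 libraries. The non-coding TRIM27 transcript ENST00000498117, of 728 bases, was at 4.64 and 5.68 FPKM after IgG and at 0.0340 and 0.0201 FPKM after KIAA1429 precipitation.

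**Figure D5:**
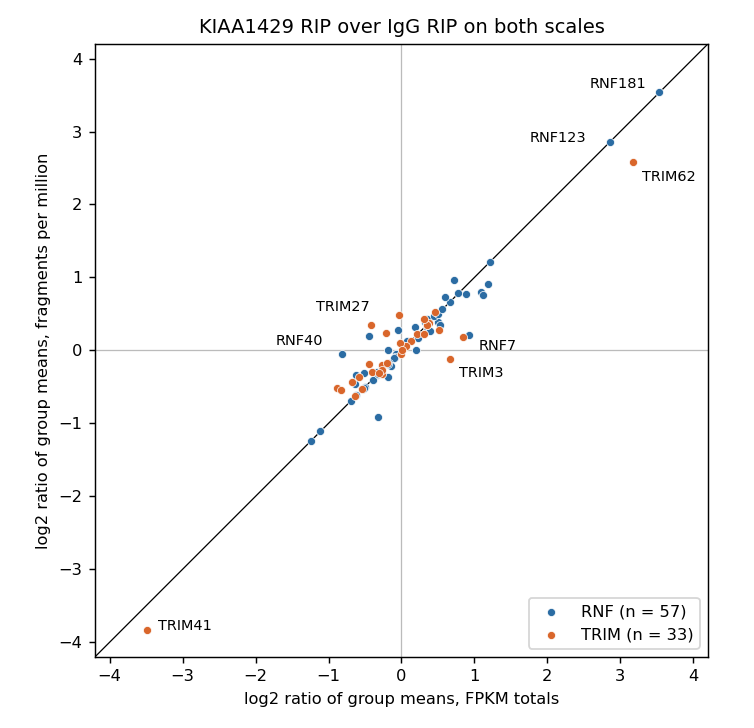
Log2 ratio of group means, KIAA1429 RIP over IgG RIP, from FPKM totals and from FPM for 57 RNF and 33 TRIM totals whose transcripts all had a length; the diagonal marks equal ratios. RNF181 and TRIM41 keep their place at the ends, and RNF40, RNF7, TRIM27 and TRIM3 lie off the diagonal.

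Features that the rule did not use were compared with the ratios. The most abundant listed transcript of the 96 members had a median length of 3319 bases and 3.40 GGAC per kilobase, against 2902 bases and 3.60 per kilobase over all gene totals with an annotated transcript. Across the 96 members, Spearman's rho with the log2 ratio was 0.10 for length, −0.20 for GGAC per kilobase, −0.08 for the number of listed transcripts and −0.20 for mean FPKM, and across 10935 gene totals it was −0.195 for length, −0.0807 for GGAC per kilobase, −0.00171 for listed transcripts and 0.0706 for mean FPKM. These relations were computed across genes that share the same 4 libraries, and they are given as a description. The members with GGAC density above the median had a median log2 ratio of −0.16, and those at or below it 0.01, against −0.0397 and 0.0546 over all gene totals.

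The other genes of the pathway, from lists that also held no gene past the adjusted threshold of limma, gave the following counts, on the FPKM scale unless FPM is named. Over all gene totals, 49.4% were lower by group mean, 16.6% lay above and 15.2% below without overlap, and the median log2 ratio was 0.01. Both E1 genes overlapped between groups. Of 31 E2 genes, 21 were higher and 10 lower, with 6 above and 3 below without overlap and a median log2 ratio of 0.17. Of 26 HECT ligases tested, 11 were higher and 15 lower, and 1 lay above and 6 below without overlap. Of 14 cullin-RING core genes, 9 were higher and 5 lower, with 5 above and 0 below without overlap, RNF7 among the 5. CUL2, the cullin of the VHL ligase, named after its values were seen, was at 1.66 and 1.27 FPKM with IgG and at 7.99 and 7.71 FPKM with the KIAA1429 antibody, with an unadjusted p of 0.00584 and an adjusted p of 0.981 from limma. Of 31 other RING and RING-between-RING genes tested, 12 were higher and 19 lower, with 7 above and 5 below without overlap. Among them CBLL1, the RING protein of the writer complex, was at 12.3 and 0.0600 FPKM in the IgG libraries and 10.2 and 4.57 FPKM in the KIAA1429 libraries, and its IgG RIP replicates enclosed both KIAA1429 RIP values. Of 8 MARCH ligases tested, membrane proteins with a RING-like domain whose list was added after the data had been seen, 1 was higher and 7 lower, with 0 above and 5 below without overlap and a median log2 ratio of −0.34. Of 42 ubiquitin-specific proteases tested, 17 were higher and 25 lower, with 3 above and 12 below without overlap (28.6% below). In FPM the counts without overlap were 6 above and 5 below of 29 E2 genes and 1 above and 2 below of 21 HECT ligases. They were 5 above and 0 below of 11 cullin-RING genes, and 3 above and 2 below of 26 other RING genes. They were 0 above and 3 below of 8 MARCH ligases and 3 above and 12 below of 40 proteases that could be compared. Over all gene totals in FPM, 16.5% lay above and 14.1% below.

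Some members share sequence or position with other genes, and their totals are uncertain for that reason. TRIM16 and TRIM16L are near-identical copies, as are parts of RNF216 and RNF216P1. TRIM6 and TRIM34 share exons with the read-through gene TRIM6-TRIM34, which was at 1.32 and 1.78 FPKM after IgG and at 0.446 and 0.273 FPKM after KIAA1429 precipitation. In all, 17 of the 110 members overlapped a listed gene on the opposite strand and 7 a listed gene on the same strand. RNF181 and TRIM41 overlapped no other listed gene.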

How the data were processed

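RIP-seq libraries of HCCLM3 cells were analysed, 2 per group, grouped by their labels. The authors isolated poly(A) RNA (the labels say total RNA), aligned reads to GRCh37/hg19 with HISAT2 and deposited FPKM per transcript. The submitters' processing notes name Bowtie2 2.1.0, without a role. The tool for FPKM and the annotation release are not given in the sources used here. Every listed transcript had at least 0.500 FPKM in the higher group mean, so weaker transcripts are outside the totals.

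FPKM was summed per gene name. Totals averaging 1 FPKM or more went into limma 3.58.1 under R 4.3.3 on the log2(FPKM + 1) scale, using lmFit and eBayes with a variance trend; p-values are two-sided and adjusted by Benjamini and Hochberg's method across 11361 totals. A call needed an adjusted p under 0.05 and a log2 fold change larger than 1 in size. DESeq, named in the study's methods, was not used, since it needs counts. Ratios, counts and figures used Python 3.11.15, numpy 2.4.6, pandas 2.3.3, scipy 1.17.1 and matplotlib 3.10.9. Lengths, exons and motifs came from GENCODE v44lift37, where 266 of 274 member transcripts matched by ID. Motif searches used the letters GGAC on the transcript strand only. Fragments were estimated as FPKM times length divided by the step of a library, which covers no counting error.

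Genes were named by rule: the 6 largest rises and 6 largest falls in limma log2 fold change, the 8 most abundant, genes set by role, and the 3 with the largest transcript shifts over a total within 2-fold. Members and lists were chosen with earlier results of these data known. Alternatives were other pseudocounts, filters and scalings, a replicate block, no trend, other transcript choices, each library left out, and fragments scaled to library size (FPM).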

Additional observations from a re-analysis of the deposited data

How the results depend on the processing

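By the estimate from the lowest values, the libraries hold about 1502000 to 1995000 fragments each. Of the 96 members, 19 had fewer than 10 estimated fragments in at least 1 library and 5 had fewer than 10 on average, and the groups overlapped in 57. Of 431 values of the 34 named genes under 13 alternatives, 397 kept their direction and side of the threshold and 33 reversed. The filters, the replicate block and the fit without trend cannot alter a log2 fold change, so those values could not reverse. Where a gene had 1 listed transcript, of type protein_coding, the other transcript choices could not alter its log2 fold change either. Of the 34 genes, 16 never reversed, RNF181 among them (log2 fold change 2.98 to 3.64). The replicate numbers are shared by both groups but nothing says they pair the libraries, and deviations of same-numbered libraries correlated at 0.187 over all gene totals. With the replicate block, limma enriched 1 member, RNF181 (log2 fold change 3.31, adjusted p 0.00133; in the other alternatives limma gave adjusted p from 0.155 to 0.9998), among 12 enriched and 1 depleted gene totals, and changed no other member's call.

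With a filter at a mean of 5 FPKM, which leaves fewer genes, 4 members were at least 2-fold higher (5.71% against 4.18% of all gene totals) and 2 lower (2.86% against 2.21%), with a median log2 ratio of −0.17 against 0.0228. In FPM, chosen after seeing the data, 4 were at least 2-fold higher (4.44% against 6.85%), 13 lay below without overlap (14.4% against 14.1%) and the median was 0.00898 against 0.0214. There RNF20 (0.0125), TRIM21 (0.40), TRIM28 (−0.024) and TRIM33 (0.52) reversed. With the most abundant transcript, 10 were at least 2-fold higher (10.4% against 11.1%) and 8 lower (8.33% against 9.91%), 13 lay below (13.5% against 14.4%) and the median was 0.0445 against 0.0203. There RNF20 (0.054), RNF31 (−0.0951), RNF40 (0.12), RNF7 (−0.40), TRIM21 (0.77), TRIM28 (−0.25), TRIM33 (1.35) and TRIM37 (0.21) reversed. RNF10 (0.0135) reversed with protein_coding transcripts only and RNF19A (−0.00279) with median scaling. The cause was not tested.

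With each library left out in turn, 0 members were enriched or depleted, 5 to 17 were at least 2-fold higher (5.26% to 17.7%, against 7.85% to 15.8% of all gene totals) and 5 to 8 lower (5.21% to 8.42%, against 7.80% to 11.7%). Without overlap, 25 to 37 lay above (26.0% to 38.5%, against 29.4% to 40.1%) and 29 to 49 below (30.2% to 51.0%, against 29.5% to 37.9%), and the median ran from −0.18 to 0.0353, against −0.0523 to 0.14 over all gene totals. Log2 fold changes that crossed 0 ran as follows: RNF10 −0.22 to 0.0509, RNF11 −0.64 to 0.46, RNF19A −0.22 to 0.23, RNF2 −0.52 to 1.11, RNF20 −0.41 to 0.0428, RNF31 −0.0637 to 0.53, TRIM21 −0.56 to 0.37, TRIM24 −0.0947 to 0.20, TRIM26 −2.01 to 0.0365, TRIM28 −0.24 to 0.26, TRIM33 −0.51 to 0.23, TRIM5 −1.07 to 0.0392, TRIM59 −0.42 to 2.61, TRIM66 −0.40 to 1.36 and TRIM8 −0.0277 to 0.57. Those that kept their sign and have no range in the text above were RNF13 0.62 to 1.45, RNF146 −0.99 to −0.16, RNF168 −0.70 to −0.17, RNF187 −1.48 to −0.48, RNF213 −0.43 to −0.11, RNF4 −1.09 to −0.21, RNF40 −1.20 to −0.46, RNF5 −0.64 to −0.15, RNF7 0.65 to 1.08, RNF8 −0.39 to −0.11, TRIM25 −0.22 to −0.16, TRIM32 −1.26 to −0.34, TRIM37 −0.70 to −0.0763 and TRIM62 1.18 to 1.91. The lone library of a group is there assumed to vary like the others.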
